A study of Mus musculus with 24 samples.

Results

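A set of 10 genes of protein folding in the endoplasmic reticulum (ER) were followed in the left ventricle of mice with and without streptozotocin diabetes. The 10 genes, Hspa5, Hsp90b1, Calr, Dnajb9, Sdf2l1, Creld2, Pdia4, Pdia6, Herpud1 and Xbp1, were found by the gene name that the arrays give each probe. They are read by 12 probes, of 36413 gene names and 55681 probes in all, with a pair of probes each for Dnajb9 and Pdia6. All 10 genes and 12 probes passed the background filter, which kept 28237 genes, and every one of the 12 was well above background on all 24 arrays. The series asks what a raised glucose supply to heart muscle does in the diabetic heart. Groups of 6 male mice each were mG4H STZ, mG4H VEH, CON STZ and CON VEH, and every ventricle was hybridised to its own 1-colour array. The mG4H mice carried an inducible transgene for the glucose transporter GLUT4 that is driven in cardiomyocytes, and CON mice were the controls. STZ is streptozotocin, a toxin of the insulin-producing beta cells, given at 55 mg per kg on 5 days in a row, and VEH mice received the citrate buffer alone. The transgene was switched on 2 weeks after STZ, and the heart was taken 2 weeks later. Some mice had a relative in another group, and the labels do not say which. Each sample is the whole ventricle wall, so fewer cells of a type and less RNA per cell cannot be told apart.

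The ER folds secreted and membrane proteins, and when unfolded proteins build up in it, the unfolded protein response switches on genes for chaperones and for protein disposal. Its sensors are ATF6, which is cut to release a transcription factor, IRE1, which splices the Xbp1 transcript into the form that encodes an active transcription factor, and PERK, which slows translation and raises ATF4. Most of the 10 genes are textbook targets of the ATF6 and XBP1 branches, and in heart muscle the ER is continuous with the sarcoplasmic reticulum that stores calcium.

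The promoters are shown because 6 of the 10 genes hold the letters of a known stress element there. ATF6 binds with NF-Y to the ER stress response element, searched as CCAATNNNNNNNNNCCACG, and to its short form, searched as ATTGGNCCACG. The core of the unfolded protein response element was searched as TGACGTG. Both strands were read in the 300 bases that run 250 bases upstream to 50 bases downstream of each gene's start, in the RefSeq table of build GRCm38.p6, which held all 10 genes. The long element was present in 5 of the 10 genes, Hspa5, Hsp90b1, Calr, Creld2 and Pdia6, and in 0.119% of all 32851 promoters. Hsp90b1 had it at 2 places, once on each strand. The short form was present in Herpud1 and in 0.0365% of all promoters, and the core in Hspa5 and in 2.01%. No match overlapped another, and the letters were not in the windows of Xbp1, Dnajb9, Pdia4 and Sdf2l1. The stretches that hold a match are printed 5′ to 3′ on the gene's own strand, with the fixed letters of each match, or of its reverse complement, in capitals. The Hspa5 stretch is chr2:34771911-34772065 (plus strand) and holds the core element first and the long element second. The Hsp90b1 stretch is chr10:86705511-86705678 (minus strand), that of Calr chr8:84847053-84847115 (minus strand) and that of Creld2 chr15:88819498-88819560 (plus strand). The Pdia6 stretch is chr12:17266469-17266531 (plus strand), and that of Herpud1 chr8:94386355-94386409 (plus strand).
Hspa5: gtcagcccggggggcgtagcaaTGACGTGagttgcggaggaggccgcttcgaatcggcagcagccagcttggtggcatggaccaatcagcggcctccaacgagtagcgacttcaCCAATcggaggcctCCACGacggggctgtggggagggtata
Hsp90b1: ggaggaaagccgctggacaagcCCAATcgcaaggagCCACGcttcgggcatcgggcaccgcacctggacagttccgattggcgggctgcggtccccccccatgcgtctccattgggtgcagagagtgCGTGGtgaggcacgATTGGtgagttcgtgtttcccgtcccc
Calr: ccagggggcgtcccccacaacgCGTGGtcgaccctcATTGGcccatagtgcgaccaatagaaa
Creld2: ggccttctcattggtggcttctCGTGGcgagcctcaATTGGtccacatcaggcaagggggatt
Pdia6: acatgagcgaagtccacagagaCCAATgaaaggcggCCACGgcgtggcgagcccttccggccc
Herpud1: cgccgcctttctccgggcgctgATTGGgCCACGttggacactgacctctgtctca

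Values are log2 of a probe's processed signal relative to the 75th percentile of its array, so that 0 is that percentile and a difference of 1 is a doubling, and they are compared between arrays, never between probes. That percentile lay between 369.8 and 583.2 intensity units, with 58.5% to 76.3% of an array's spots above the background mark. Precision is limited by the number of arrays. All 4 groups were present on slides 1, 2 and 3, and slide 4 held only replicate 3 of mG4H VEH and of CON VEH. The probe for Slc2a4, the GLUT4 gene, read 5.66 to 6.94 in mG4H STZ, 6.33 to 6.61 in mG4H VEH, 5.60 to 6.42 in CON STZ and 6.51 to 6.93 in CON VEH. It was therefore not above control levels in the arrays labelled mG4H VEH (log2 fold change -0.20 ± 0.16 SE against CON VEH). The labels give no transgene sequence, so a probe that lies outside it checks nothing, and genotype directions below rest on the labels. The cardiomyocyte markers were present in all samples, with 10 of 10 measured.

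Across all genes, 3 arrays stood apart: mG4H STZ replicate 3, mG4H STZ replicate 5 and CON STZ replicate 3. Their median correlations with the other arrays were 0.9717, 0.9745 and 0.9754, and the next lowest, CON STZ replicate 4, had 0.9805. They lay on slides 3, 1 and 3, beside arrays of every group. Values that they move are also given without them, a choice made after the data were seen.

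**Figure D1:**
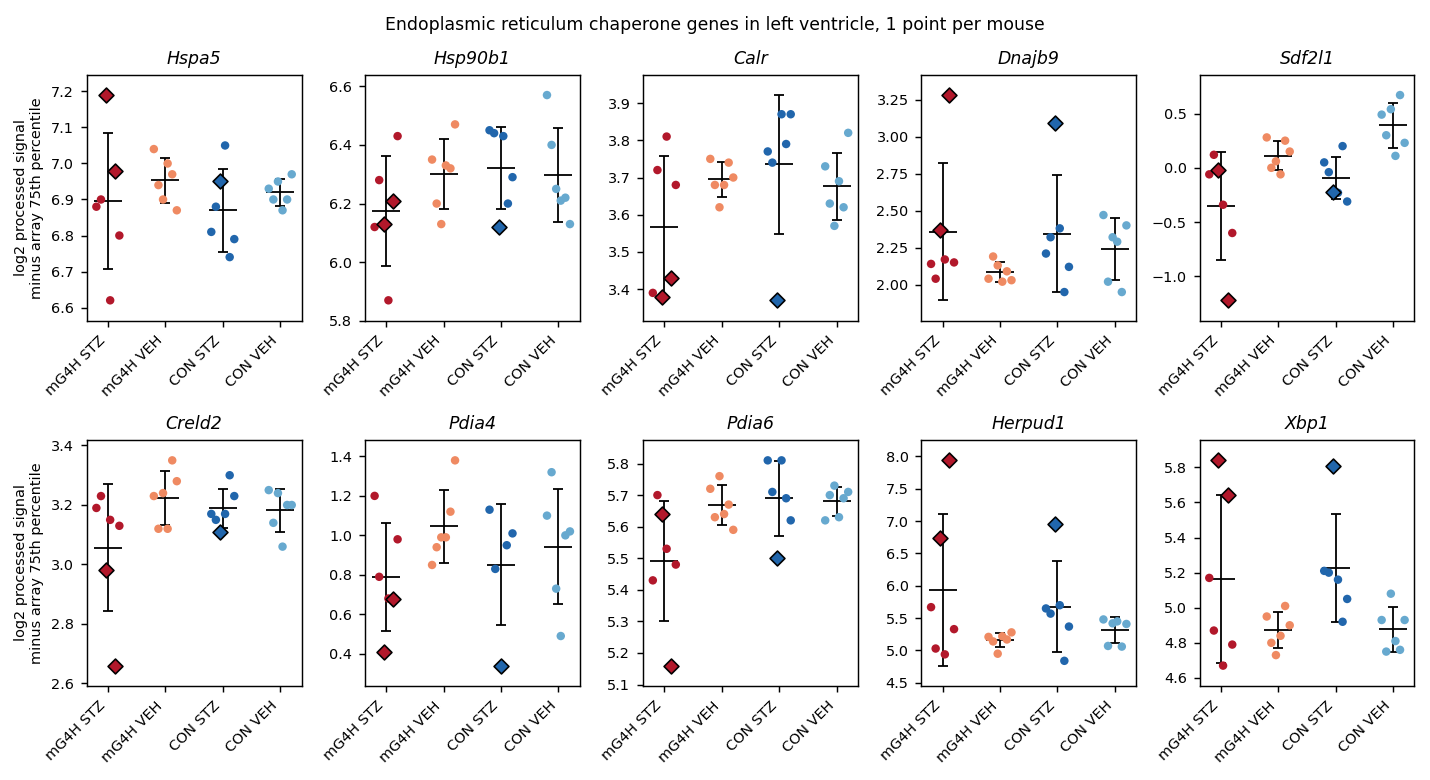
Values of the 10 genes in each mouse, as log2 processed signal minus the 75th percentile of the array, by group from mG4H STZ on the left to CON VEH on the right. Each panel has its own scale, bars show mean and SD (n = 6, and 5 for Pdia4 in CON STZ), and outlined diamonds are the 3 arrays that stood apart. Herpud1 reads 6.74 to 7.94 in the diamonds and 4.84 to 5.70 in the other 21 arrays.

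None of the 10 genes passed the test of a change with STZ in either genotype, by limma with Benjamini-Hochberg adjustment over all genes. In mG4H STZ against mG4H VEH, 0 of 10 passed at an adjusted p of 0.05, where 0.266% of all genes did, and 2 had an unadjusted p below 0.05, Sdf2l1 and Pdia6. In CON STZ against CON VEH, 0 of 10 passed, where 3.96% of all genes did, and 1 had an unadjusted p below 0.05, Sdf2l1. Over all genes 14.01% in the mG4H comparison and 14.3% in the CON comparison had an unadjusted p below 0.05. For each of the 10 genes the arrays of the 2 groups overlapped in both comparisons. The share of all genes with such overlap is not given here, so this does not set the 10 genes apart. The median log2 fold change of the 10 genes was -0.13 in the mG4H comparison, beside 0.06 over all genes, and 0.02 in the CON comparison, beside 0.03. With scaling to the array median the all-gene median of the mG4H comparison was -0.05 in place of 0.06, and 0 of 10 genes passed. The genes of the set moved down as well, Hsp90b1 and Calr from -0.13 to -0.24 and Pdia6 from -0.18 to -0.29. The all-gene value of -0.05 is therefore not to be set beside the -0.13 of the 10 genes.

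**Figure D2:**
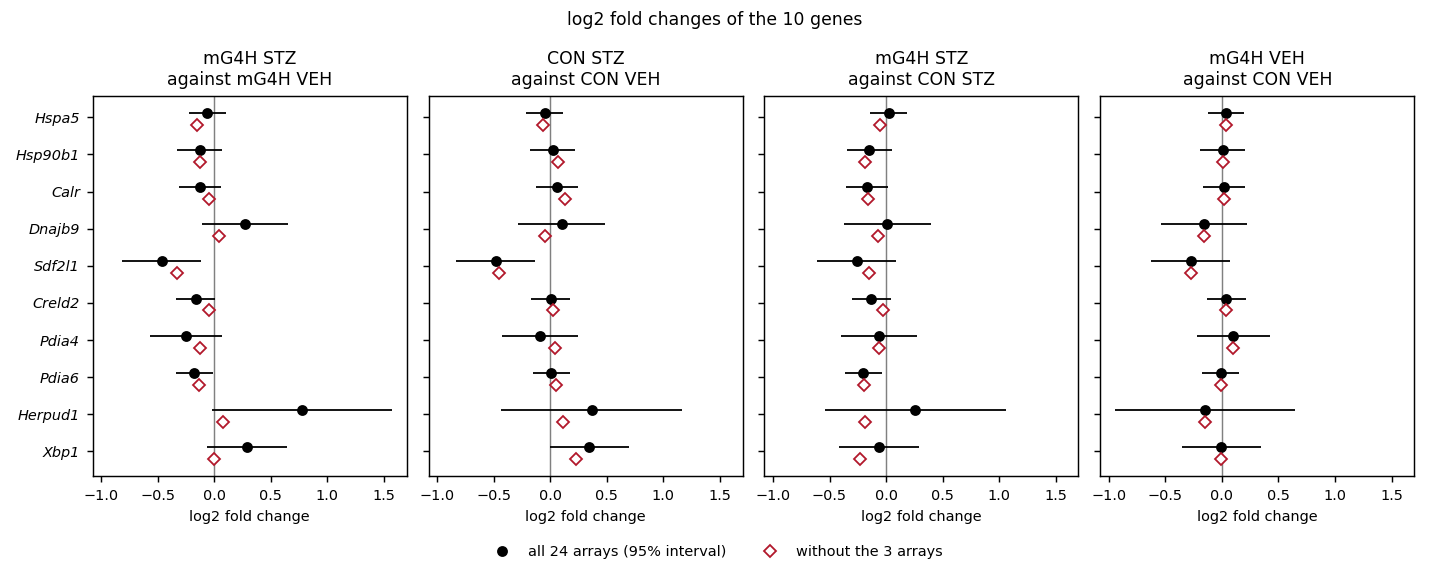
The log2 fold changes of the 10 genes in 4 comparisons, with 95% intervals from limma (black, all 24 arrays) and the value without the 3 arrays that stood apart (red diamonds). In mG4H STZ against mG4H VEH the Herpud1 value is 0.78 with all arrays and 0.08 without the 3.

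Sdf2l1, a lumenal protein that works with the J-domain co-chaperones of BiP, had the lowest fold change of the 10 genes under STZ in both genotypes, short of the threshold. Its probe lies at chr16:17130426-17130485 (minus strand, build mm9, as all probe positions), and its place among exons and untranslated regions was not looked up here. The lowest, median and highest values were -1.22, -0.20 and 0.12 in mG4H STZ, against -0.06, 0.11 and 0.28 in mG4H VEH. In CON mice they were -0.31, -0.13 and 0.20 under STZ, against 0.11, 0.40 and 0.67 under VEH. No STZ array was above all arrays of its VEH group, while the groups overlapped in both genotypes. The log2 fold change was -0.47 ± 0.17 (SE, limma, adjusted p = 0.204) in mG4H mice and -0.48 ± 0.17 (limma, adjusted p = 0.128) in CON mice. Within slides 1, 2 and 3 the differences were -1.0, -0.19 and -0.18 in mG4H mice and -0.63, -0.29 and -0.40 in CON mice. The mG4H value on slide 1 includes replicate 5, the lowest Sdf2l1 value of all, and without that array the mG4H fold change was -0.29. In CON mice the change of Sdf2l1 passed the threshold once the 3 arrays were left out (-0.46 ± 0.13, limma, adjusted p = 0.0342), when 8.38% of all genes passed, and also without mG4H STZ replicate 5 alone (limma, adjusted p = 0.0253), an array outside both CON groups that enters through the shared spread. In mG4H mice it did not pass without the 3 arrays (-0.33 ± 0.14, limma, adjusted p = 0.508). The difference of the 2 STZ effects was 0.02 ± 0.24.

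Herpud1, Xbp1 and Dnajb9 were higher in single STZ hearts than in the rest of the series. Herpud1 encodes an ER membrane protein that serves the HRD1 complex, which passes misfolded proteins out for degradation, and its probe lies at chr8:96919117-96919176 (plus strand). Its lowest, median and highest values were 4.94, 5.50 and 7.94 in mG4H STZ, against 4.95, 5.19 and 5.28 in mG4H VEH. They were 4.84, 5.61 and 6.95 in CON STZ, against 5.06, 5.41 and 5.48 in CON VEH. The VEH hearts thus spanned a narrow range, and the STZ hearts ran both below and far above it. The fold change was 0.78 ± 0.38 (SE, limma, adjusted p = 0.371) in mG4H mice and 0.37 ± 0.38 (limma, adjusted p = 0.872) in CON mice. The values above all others were 6.74 and 7.94 in replicates 3 and 5 of mG4H STZ and 6.95 in replicate 3 of CON STZ, the 3 arrays that stood apart over all genes. Leaving these out, the fold changes of Herpud1 were 0.08 ± 0.16 in mG4H mice and 0.11 ± 0.15 in CON mice. The within-group SD of Herpud1 over all 24 arrays was 0.69, larger than that of 80.7% of genes, whose median was 0.34.

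Xbp1, the transcription factor that IRE1 activates by splicing, was measured by 1 probe at chr11:5425816-5425875 (plus strand), and no value here separates the spliced from the unspliced transcript. Its lowest, median and highest values were 4.67, 5.02 and 5.84 in mG4H STZ, against 4.73, 4.87 and 5.01 in mG4H VEH. In CON STZ they were 4.92, 5.18 and 5.81, against 4.75, 4.87 and 5.08 in CON VEH. In CON STZ, 4 of 6 hearts were above every CON VEH heart. The log2 fold change was 0.29 ± 0.17 (SE, limma, adjusted p = 0.476) in mG4H mice and 0.35 ± 0.17 (limma, adjusted p = 0.361) in CON mice. Xbp1 read 5.84 and 5.64 in mG4H STZ replicates 3 and 5 and 5.81 in CON STZ replicate 3, above the range of 4.67 to 5.21 in the other 21 arrays. In the other 21 arrays the fold changes were 0.003 ± 0.095 in mG4H mice and 0.23 ± 0.09 in CON mice (limma, adjusted p = 0.137).

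Dnajb9 encodes a J-domain co-chaperone of BiP that is a textbook XBP1 target, and its probes lie at chr12:45307313-45307372 and chr12:45308272-45308331 (minus strand). On its brighter probe it read 2.04, 2.16 and 3.28 in mG4H STZ (lowest, median, highest), against 2.02, 2.06 and 2.19 in mG4H VEH. In CON STZ it read 1.95, 2.26 and 3.09, against 1.95, 2.31 and 2.47 in CON VEH. The medians of the groups were thus close, and 1 heart in each STZ group was well above the rest. Its log2 fold changes were 0.27 ± 0.18 in mG4H mice (limma, adjusted p = 0.570) and 0.10 ± 0.18 in CON mice (limma, adjusted p = 0.967). The other Dnajb9 probe gave 0.53 ± 0.21 in mG4H mice (limma over all probes, adjusted p = 0.281) and 0.07 ± 0.21 in CON mice. On that probe all 3 arrays that stood apart, at -0.93 and -0.40 in mG4H STZ replicates 3 and 5 and -0.84 in CON STZ replicate 3, were above the other 21, which read -2.14 to -1.46. Without the 3 arrays the brighter probe gave 0.04 ± 0.10 in mG4H mice and -0.05 ± 0.09 in CON mice.

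**Figure D3:**
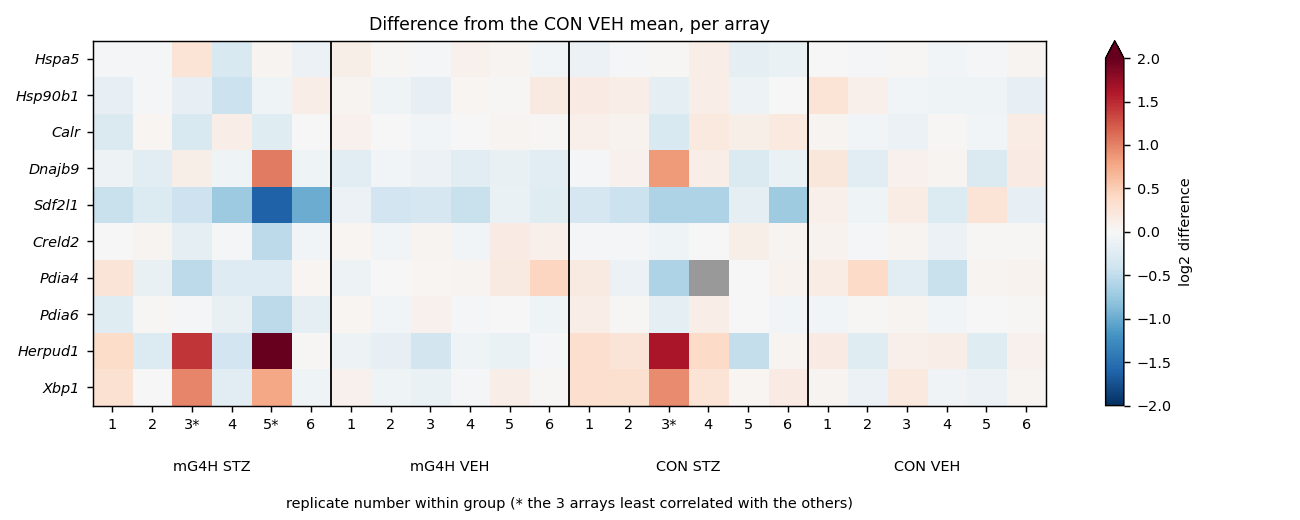
Difference of each array from the CON VEH mean of the gene, in log2 units, for 10 genes (down) and 24 mice (across), with mG4H STZ on the left and CON VEH on the right. Asterisks mark the 3 arrays that stood apart, the grey cell is the spot left out for Pdia4, and the colour scale ends at 2, which Herpud1 passes in mG4H STZ replicate 5.

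The chaperones proper varied little. The Hspa5 probe lies at chr2:34631913-34631972 (plus strand). Hspa5, which encodes BiP, the HSP70 of the ER that also holds the sensors inactive, read 6.62, 6.89 and 7.19 in mG4H STZ (lowest, median, highest) and 6.87, 6.96 and 7.04 in mG4H VEH. In CON STZ it read 6.74, 6.85 and 7.05, and in CON VEH 6.87, 6.92 and 6.97. The STZ groups ran both below and above their VEH groups. Its fold change was -0.06 ± 0.08 in mG4H mice and -0.05 ± 0.08 in CON mice, with 95% intervals of -0.22 to 0.10 and -0.21 to 0.11 on the log2 scale, that is 0.858-fold to 1.07-fold and 0.865-fold to 1.08-fold. Without the 3 arrays that stood apart it was -0.16 ± 0.07 in mG4H mice (limma, adjusted p = 0.539) and -0.06 ± 0.06 in CON mice. Its within-group SD over all arrays was 0.12, and 4.12% of all genes had a lower one. The highest Hspa5 value of the series, 7.19, was in mG4H STZ replicate 3, and the lowest, 6.62, was in mG4H STZ replicate 4.

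Hsp90b1, the HSP90 of the ER (GRP94 protein), had a fold change of -0.13 ± 0.10 in mG4H mice and 0.02 ± 0.10 in CON mice. Its values ran over 5.87 to 6.43 in mG4H STZ and 6.13 to 6.47 in mG4H VEH, and over 6.12 to 6.45 in CON STZ and 6.13 to 6.57 in CON VEH. Calr encodes calreticulin, a lectin chaperone that also binds calcium in the ER. It read 3.38, 3.55 and 3.81 in mG4H STZ (lowest, median, highest) and 3.62, 3.69 and 3.75 in mG4H VEH. In CON STZ it read 3.37, 3.78 and 3.87, and in CON VEH 3.57, 3.66 and 3.82. Calr ran over a wider range under STZ, and its fold changes were -0.13 ± 0.09 in mG4H mice and 0.06 ± 0.09 in CON mice. In the other 21 arrays they were -0.05 ± 0.07 and 0.13 ± 0.07. Hsp90b1 gave -0.13 ± 0.10 and 0.07 ± 0.10 there. Creld2, an ER stress-inducible protein with a role in disulfide exchange, had -0.16 ± 0.08 in mG4H mice (limma, adjusted p = 0.384) and 0.01 ± 0.08 in CON mice, and -0.04 ± 0.06 and 0.02 ± 0.06 without the 3 arrays. Its 2 lowest values, 2.66 and 2.98, were in mG4H STZ replicates 5 and 3, while the 21 arrays that did not stand apart read 3.06 to 3.35.

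The protein disulfide isomerases, which make and shuffle disulfide bonds in the ER, had fold changes below 0 under STZ in mG4H mice, none past the threshold. Pdia6 read 5.16, 5.50 and 5.70 in mG4H STZ (lowest, median, highest) and 5.59, 5.66 and 5.76 in mG4H VEH. In CON mice it read 5.50, 5.70 and 5.81 under STZ and 5.62, 5.70 and 5.73 under VEH. Its 2 probes gave -0.18 ± 0.08 (limma, adjusted p = 0.308) and -0.17 ± 0.08 (limma over all probes, adjusted p = 0.377) in mG4H mice. In CON mice they gave 0.01 ± 0.08 and -0.08 ± 0.08. On the dimmer probe all 3 arrays that stood apart, at 1.21 and 1.19 in mG4H STZ replicates 3 and 5 and 1.14 in CON STZ replicate 3, were below the other 21, which read 1.22 to 1.66. Without the 3 arrays the brighter probe gave -0.13 ± 0.06 in mG4H mice (limma, adjusted p = 0.597). Pdia4 had -0.25 ± 0.15 in mG4H mice and -0.09 ± 0.16 in CON mice, where the spot of CON STZ replicate 4 had been marked an outlier and left out, so that n was 5. With the 3 arrays left out Pdia4 gave -0.13 ± 0.14 in mG4H mice and 0.04 ± 0.14 in CON mice. It read 0.41 to 1.2 in mG4H STZ and 0.85 to 1.38 in mG4H VEH, and 0.34 to 1.13 in CON STZ and 0.49 to 1.32 in CON VEH.

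The transgene label made no difference that passed the test. The groups overlapped for all 10 genes, again with no share over all genes beside it. In mG4H STZ against CON STZ, 0 of 10 genes passed by limma, where 0.0106% of all genes did. An unadjusted p below 0.05 was found for 1 of the 10, beside 3.55% of all genes. That gene was Pdia6, whose brighter probe gave -0.20 ± 0.08 (SE, limma, adjusted p = 1), and -0.20 ± 0.06 without the 3 arrays (limma, adjusted p = 0.391). The within-slide differences of the brighter probe were -0.40, -0.19 and -0.01 on slides 1, 2 and 3. The dimmer Pdia6 probe gave -0.09 ± 0.08 (limma over all probes, unadjusted p = 0.291), so the low p-value rests on the brighter probe alone. The 10 fold changes ran from -0.26 for Sdf2l1 to 0.26 for Herpud1. Both ends differed without the arrays that stood apart. Leaving out mG4H STZ replicate 5 gave -0.09 for Sdf2l1 and -0.14 for Herpud1, and leaving out all 3 gave -0.15 and -0.18. In those 21 arrays the values of all 10 genes were below 0, from -0.23 for Xbp1 to -0.03 for Creld2. Their median was -0.16, beside 0.04 over all genes. By limma 0 of 10 passed, where 0.0779% of all genes did, and 3 had an unadjusted p below 0.05 (Pdia6, Xbp1 and Calr). The shares of all genes below 0 and at that unadjusted p in the 21 arrays are not given here, so these counts do not set the 10 genes apart. In mG4H VEH against CON VEH, 0 of 10 passed by limma, where 0.0815% of all genes did, and 0 had an unadjusted p below 0.05, beside 2.87% of all genes. The values ran from -0.28 for Sdf2l1 to 0.10 for Pdia4. The 3 arrays that stood apart are in neither VEH group and enter this comparison through the shared spread. Without them 0 of 10 passed, where 0.297% of all genes did. Sdf2l1 alone then had an unadjusted p below 0.05 (-0.28 ± 0.12, limma, adjusted p = 0.889), and that share over all genes is not given here. The difference of the STZ effects between genotypes passed for 0 of 10 genes by limma, where 0.00% of all genes passed. An unadjusted p below 0.05 was found for 0 of the 10, beside 1.77% of all genes. It ran from -0.19 for Pdia6 to 0.41 ± 0.54 for Herpud1. The Herpud1 value was 0.01 without mG4H STZ replicate 5 and -0.03 ± 0.22 without the 3 arrays.

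Within groups, Herpud1 and Xbp1 varied together. Since the 3 arrays that stood apart form a cluster of their own in these genes, coefficients are given over the other 21 arrays, with the group means removed. For Herpud1 and Xbp1, Pearson's r was 0.79 and Spearman's rho was 0.76, with permutation p-values adjusted over all 45 pairs of 0.0108 and 0.0130. Without the 2 arrays farthest from the Herpud1 median r was 0.78. Within slides 1 and 2 it was 0.40 and 0.96 (7 arrays each), while slide 3 had too few arrays. Group means were removed within each slide, where 1 array was alone in its group. These within-slide values therefore rest on few independent differences. Herpud1 with Xbp1 was the only 1 of the 45 pairs for which both coefficients passed. Pairs of other genes were not tested in the same way, so the result does not set Herpud1 and Xbp1 apart. With slide means also removed their r was 0.73. Zfp68, Serinc3 and Glul, genes outside the set that were picked for likeness to Herpud1, had 0.84, 0.80 and 0.86 with it without the 3 arrays. Sdf2l1 and Creld2 had r = 0.61 (permutation, adjusted p = 0.0490) and rho = 0.57 (adjusted p = 0.130), and Herpud1 and Dnajb9 had r = 0.64 (adjusted p = 0.0543) and rho = 0.60 (adjusted p = 0.130). Of the 9 relations of Hspa5, 0 passed on both coefficients. The highest was with Xbp1, at r = 0.60 (permutation, adjusted p = 0.202 over the 9) and rho = 0.61 (adjusted p = 0.0904). With all 24 arrays 15 of the 45 coefficients had the other sign.

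**Figure D4:**
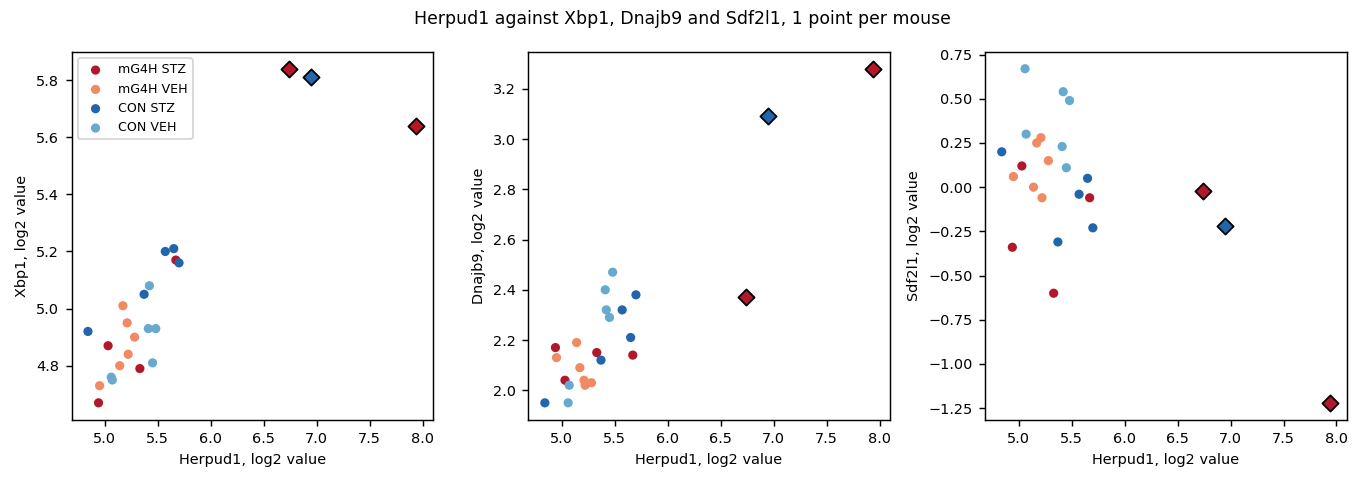
Herpud1 (across) against Xbp1, Dnajb9 and Sdf2l1 (up), in log2 units, for 24 mice coloured by group. The 3 arrays that stood apart (outlined diamonds) lie at Herpud1 values of 6.74 to 7.94, and the other 21 arrays lie at 4.84 to 5.70.

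Among all other genes, those most like the mean of the standardised members were picked by Pearson correlation over 24 arrays with group and slide means removed, using the 9 members with no missing value. Sec61a1, a subunit of the channel that takes proteins into the ER, was the highest at 0.86. It was followed by Thoc7 at 0.85, Gm7516 at 0.84 and G6pdx, the first enzyme of the pentose phosphate pathway, at 0.84. Without the 3 arrays the value for Sec61a1 was 0.55 and that for G6pdx 0.86. For Herpud1 alone, a choice made after its values were seen, the likest genes were Zfp68 (0.98), Serinc3 (0.98) and Glul (0.98). In all, 809 genes were past 0.9 in size with Herpud1, so its pattern was shared widely. Those genes had values of 0.84, 0.80 and 0.86 once the 3 arrays were left out.

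The rest of the unfolded protein response was read from lists. In CON STZ against CON VEH, 5 of 15 measured genes of the PERK and ATF4 branch rose past the threshold, where 1.66% of all genes were called higher. These were Atf3 (1.59 ± 0.42, limma, adjusted p = 0.0331), a stress transcription factor, Asns (0.81 ± 0.23, adjusted p = 0.0494), asparagine synthetase, and Slc3a2 (0.62 ± 0.17, adjusted p = 0.0413), the heavy chain of amino acid transporters. The other two were Nupr1 (0.60 ± 0.16, adjusted p = 0.0337) and Trib3 (0.57 ± 0.14, adjusted p = 0.0280), a pseudokinase induced by ATF4. The list's median was 0.60, beside 0.03 over all genes, while Ddit3, the CHOP gene of the same branch, had -0.27 ± 0.19 (adjusted p = 0.653). The count was 8 without the 3 arrays that stood apart and 4 with slide as a block, but 0 with scaling to the array median, without slide 4, or with body weight as a covariate. It was also 0 without replicate 3, 4 or 5 of CON VEH or replicate 1 or 5 of CON STZ, and 1 without replicate 1, 2 or 6 of CON VEH or replicate 2 or 4 of CON STZ. It was 3 without CON STZ replicate 3 and without any of replicates 1, 2, 4, 5 and 6 of mG4H VEH. In mG4H STZ against mG4H VEH, 0 of 15 passed by limma, where 0.266% of all genes did, and the median was 0.35, beside 0.06. There 6 had an unadjusted p below 0.05, all higher, beside 14.01% of all genes. In that comparison, too, 0 of 15 passed once the 3 arrays were left out, and the median was 0.13. The difference of the STZ effects passed for 0 of 15, with a median of -0.05, beside 0.02 over all genes. In mG4H STZ against CON STZ 0 of 15 passed, with a median of -0.01. Without the 3 arrays 1 passed there, Asns, which was lower, where 0.0779% of all genes passed.

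In the other 6 lists 1 of 113 genes passed in CON STZ against CON VEH, and 15.9% had an unadjusted p below 0.05, beside 14.3% of all genes. By limma, 0 of 9 sensors and activating proteases passed, and 1 had an unadjusted p below 0.05, Creb3l2 at 0.37 ± 0.11 (adjusted p = 0.0502). Of 25 other ER chaperones and folding enzymes, 0 passed and 2 had an unadjusted p below 0.05. The smallest p among these was that of Dnajc3, an inhibitor of eIF2 kinases that acts as a co-chaperone, at 0.28 ± 0.11 (adjusted p = 0.213). Of 19 genes of ER-associated degradation, 0 passed and 2 had an unadjusted p below 0.05, led by Herpud2 at 0.36 ± 0.14 (adjusted p = 0.186). Of 28 translocon, signal peptidase and COPII genes, 0 passed and 2 had an unadjusted p below 0.05, led by Arfgap3 at 0.52 ± 0.17 (adjusted p = 0.109). Of 15 calcium proteins of the ER and sarcoplasmic reticulum, 0 passed and 6 had an unadjusted p below 0.05, 5 of these lower. The smallest p among them was that of Casq1, a calsequestrin gene, at -0.95 ± 0.30 (adjusted p = 0.0856). The list's other calsequestrin gene, Casq2, is not reported here. Of 17 cytosolic and mitochondrial heat shock genes, Hspb1 alone was higher, at 0.46 ± 0.11 (adjusted p = 0.0179). Without the 3 arrays that stood apart 10 of the 113 genes passed (8.85%), beside 8.38% of all genes, and 0 of these were other chaperones. In that setting Creb3l2, Herpud2, Arfgap3, Kdelr3, Rcn3, Hspa1a and Hspb1 were called higher. Casq1, Atp2a2, the calcium pump gene of the sarcoplasmic reticulum (-0.33), and Hsph1 were called lower, and the genes not named above were chosen after their values were seen.

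**Figure D5:**
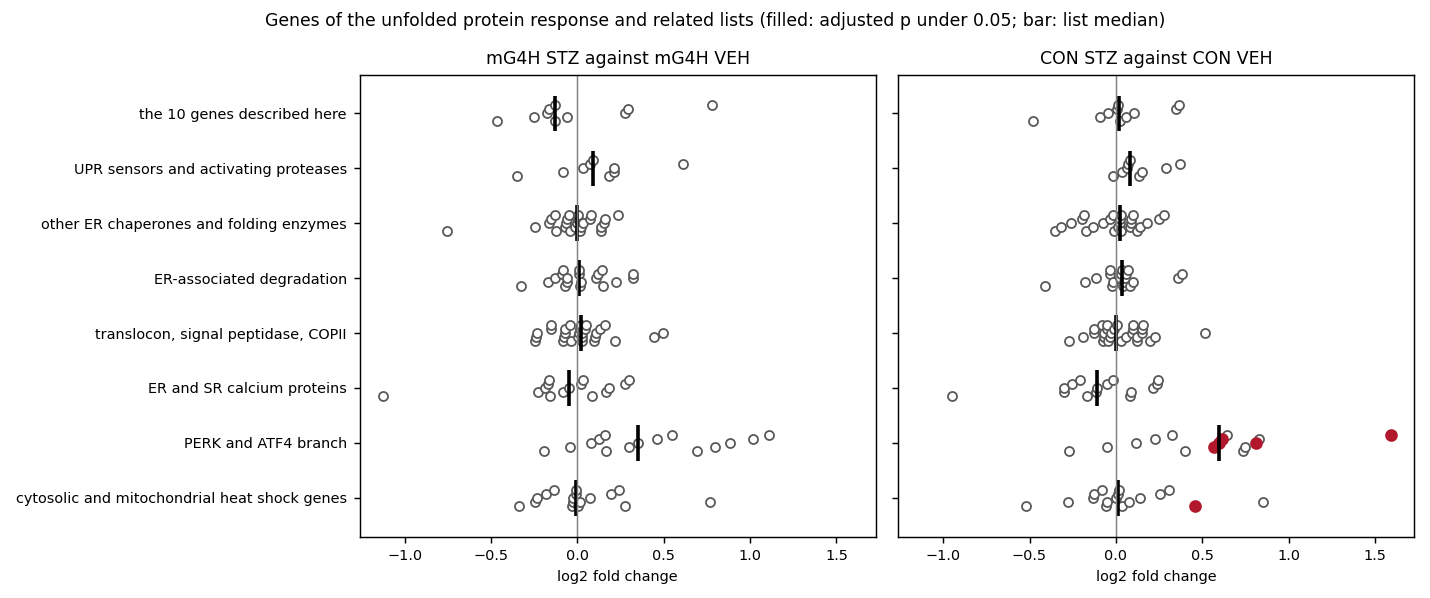
The log2 fold change of each gene of 8 lists for STZ against VEH in mG4H mice (left) and CON mice (right). Filled points passed an adjusted p of 0.05, bars are list medians. The median of the 10 genes described here is -0.13 in mG4H mice and 0.02 in CON mice, and that of the PERK and ATF4 branch is 0.35 and 0.60.

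Of the cell type markers, 3 passed the test in CON STZ against CON VEH, where 3.96% of all genes did. They were 1 of 10 fibroblast, 1 of 10 macrophage and monocyte and 1 of 10 cardiomyocyte markers, with none from the other marker lists. This count does not set the markers apart from all genes, and the sums of markers were not tested. In CON STZ against CON VEH, Postn, the periostin gene, had 1.26 ± 0.36 (limma, adjusted p = 0.0498), Itgam, a myeloid integrin gene, 0.48 ± 0.11 (adjusted p = 0.0149) and Ckm, the muscle creatine kinase gene, -0.47 ± 0.10 (adjusted p = 0.00952). With all 24 arrays these were the only markers that passed in any of the 5 contrasts. Postn did not pass with slide as a block (adjusted p = 0.0719). Of 10 fibroblast markers, 10 had fold changes above 0 in CON STZ against CON VEH (median 0.35, beside 0.03 over all genes) and 0 in mG4H STZ against CON STZ (median -0.35, beside 0.02). Their summed signal was 340 to 454 in mG4H STZ, 300 to 426 in mG4H VEH, 315 to 575 in CON STZ and 328 to 400 in CON VEH. The summed signal of 10 macrophage and monocyte markers, in multiples of the array's 75th percentile, was 58.0 to 79.7 in mG4H STZ and 52.8 to 62.5 in mG4H VEH. It was 67.1 to 87.2 in CON STZ and 55.1 to 64.1 in CON VEH, without overlap in CON mice. The sum of 6 adipocyte markers was 262 to 412 in mG4H STZ and 222 to 296 in mG4H VEH, and 318 to 472 in CON STZ (5 arrays) and 234 to 303 in CON VEH, again without overlap in CON mice. How often genes or sums are without overlap in this comparison is not given here, so it does not set the macrophage and adipocyte sums apart. For B and plasma cells, whose secretory ER is rich in the chaperones described here, the sum of 9 markers was 0.953 to 1.56 in mG4H STZ and 1.41 to 1.74 in mG4H VEH. It was 1.14 to 1.78 in CON STZ and 1.2 to 1.71 in CON VEH. In the arrays that stood apart, mG4H STZ replicates 3 and 5 and CON STZ replicate 3, the plasma cell sum was 1.18, 0.953 and 1.14, below both VEH ranges. The smooth muscle sum was 64.6, 72.0 and 54.0 there, below the ranges of 82.3 to 107 in mG4H VEH and 75.9 to 83.4 in CON VEH. Single smooth muscle markers did not all go that way over whole groups. In CON STZ against CON VEH 4 of 5 had fold changes above 0 (median 0.16, beside 0.03 over all genes). In mG4H STZ against mG4H VEH 2 of 5 did (median -0.03, beside 0.06). The adipocyte sum in the 3 arrays that stood apart was 404, 412 and 472, above every VEH array. The neutrophil sum, from the 4 of 7 markers that passed the filter, was 13.9, 2.24 and 7.31 in those arrays. Its range was 1.95 to 13.9 in mG4H STZ, 1.72 to 4.86 in mG4H VEH, 0.960 to 7.31 in CON STZ and 1.33 to 3.50 in CON VEH. The part of these cells in the values of the 10 genes was not tested.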

How the data were processed

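Per the labels, each of 24 left ventricles gave Cy3-labelled RNA for its own 1-colour array. The deposited files hold spot intensity as scanned and processed by Agilent Feature Extraction 10.5.1.1, which subtracted the background within each array, per the file headers. The headers place the probes on build mm9, and the submitters' processing notes also name limma. From there, processed signals of the 59305 gene spots were divided by their 75th percentile within the array and put on the log2 scale, without outlier spots, and averaged over spots of a probe. Probes above the background mark on at least 6 of 24 arrays were kept (39769 probes), and the probe of highest mean stood for its gene (28237 genes, 0.0829% missing values). All other probes of the 10 genes were fitted among all kept probes.

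All 24 arrays were fitted with limma 3.58.1 (R 4.3.3), with 4 group means and 5 contrasts, two-sided, and Benjamini-Hochberg adjustment over all genes at 0.05. On simulated data with 50 changed genes a size, among 28237, a log2 change of 0.5 was called for 24% in the CON STZ contrast and 18% in the mG4H STZ contrast, and a change of 1 for 56% and 52%. Correlations used 100000 permutations within groups, two-sided. Python 3.11.15, numpy 2.4.6, pandas 2.3.3, scipy 1.17.1 and matplotlib 3.10.9 served for the rest. The 10 genes and all lists were chosen with earlier results of these data known. Named genes were the 10 in every contrast and, per pathway list, those past the threshold (up to 3 by smallest p) or the 1 of smallest p, plus Slc2a4 and the 5 likest genes, of which 1 is not reported here. Outside that rule, chosen after their values were seen, stand Slc3a2, Asns and Ddit3 of the ATF4 list, Kdelr3, Rcn3, Hspa1a, Atp2a2 and Hsph1, the markers Postn, Itgam and Ckm, and the genes most like Herpud1.

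Replicate numbers occur in all groups, and the labels do not say that they pair mice. Over 36 same-numbered pairs the correlation of deviations from group means ran from -0.597 to 0.662, 16 were over 0.1, and 0 of 24 arrays correlated best with their own number in every other group, so the numbers were not used as a block. Alternatives were quantile and median scaling, normexp, other filters and probe rules, slide and replicate blocks, array weights, another prior, body weight, separate fits, a stricter threshold, leaving out each array and, added later, the 3 arrays that stood apart. No protein sequence was used here.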

Additional observations from a re-analysis of the deposited data

Results flagged for a closer look

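Dixon's test of the highest and lowest array in a group picked out 5 values among the 48 groups tested (12 probes in 4 groups), where chance picks out about 1 in 20. All 5 were in mG4H STZ replicate 5 and CON STZ replicate 3, among the 3 arrays that stood apart over all genes. In mG4H STZ replicate 5 the brighter Dnajb9 probe was the highest at 3.28. In CON STZ replicate 3, Xbp1 was the highest of its group at 5.81 and the brighter Dnajb9 probe the highest at 3.09. In the same heart Calr was the lowest of its group at 3.37 and the dimmer Pdia6 probe the lowest at 1.14. The Herpud1 values of mG4H STZ were not picked out, since 2 of the 6 hearts were high together.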

How the results depend on the processing

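The count of the 10 genes past the threshold stayed at 0 in every contrast and alternative run, except in CON STZ against CON VEH, where it was 1, Sdf2l1, with array weights (adjusted p = 0.0129), without the 3 arrays that stood apart (adjusted p = 0.0342) and in the range of 0 to 1 when single arrays were left out (1 without mG4H STZ replicate 5). The log2 fold change of Sdf2l1 in that contrast ran from -0.71 (body weight as a covariate) to -0.41 (normexp). With the replicate block the count was 0 in all 5 contrasts, and the whole table gave 937 calls in CON STZ against CON VEH, 59 in mG4H STZ against mG4H VEH, 20 in mG4H VEH against CON VEH, 2 in mG4H STZ against CON STZ and 0 for the difference. The number of genes called in the whole table moved as well, and a count out of 10 cannot be set beside it. In CON STZ against CON VEH it ran from 75 (median scaling) to 2393 (array weights). In mG4H STZ against mG4H VEH it ran from 0 (only the groups compared) to 227 (array weights). It was 8 to 208 in mG4H VEH against CON VEH, 0 to 22 in mG4H STZ against CON STZ and 0 to 6 for the difference. Leaving out single arrays gave 636 to 1640, 17 to 627, 13 to 38, 2 to 12 and 0 to 1 in the same order of contrasts. The cause was not tested. A fit of only the groups compared gives no further value for the difference, which uses all 4 groups. In the simulated data, drawn with the spread of all genes (median within-group SD 0.34), most changes of 0.5 on the log2 scale were left uncalled. The within-group SDs of the 10 genes ran from 0.12 for Hspa5 to 0.69 for Herpud1. That rate therefore need not hold for each of them.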

Other observations

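In the 3 arrays that stood apart, the median of the PERK and ATF4 list lay 0.92 and 0.81 above the CON VEH mean in mG4H STZ replicates 3 and 5 and 0.53 above it in CON STZ replicate 3. The ranges of that median were -0.08 to 0.92 in mG4H STZ, -0.08 to 0.07 in mG4H VEH, 0.16 to 0.67 in CON STZ and -0.09 to 0.13 in CON VEH. All 6 CON STZ hearts were thus above every CON VEH heart on this median, while the mG4H groups overlapped. How often lists or genes separate in this way is not given here, and the list was chosen with earlier results of these data known. By limma the difference of the STZ effects between genotypes passed for 0 of 15 genes of the list, so no difference between the genotypes is shown. Blood glucose at 4 weeks, given without a unit, was 601 in each of the 3 mice. It was also 601, the highest value of the series, in 5 other STZ mice (1 mG4H STZ and 4 CON STZ), and the labels do not say whether that is the upper limit of the reading. Body weight, also without a unit, was 21.1 and 24.7 in mG4H STZ replicates 3 and 5 and 24.0 in CON STZ replicate 3.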
